A study of Mus musculus with 4 samples.

Results

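MHC class II molecules carry peptides to the cell surface and show them to CD4 T cells. The genes described here are 10: H2-Aa, H2-Ab1 and H2-Eb1, which encode chains of the classical class II molecules; H2-DMa, H2-DMb1, H2-DMb2 and H2-Oa, which encode chains of the molecules that load peptide and restrain the loading; Cd74, the invariant chain; Ciita, the transcriptional activator of the class II genes; and Scimp, a membrane adaptor that associates with class II. A gene was measured by every probe set whose platform annotation holds exactly 1 gene symbol. That rule gave 9 probe sets, 1 for each of 9 genes, of 39720 tested probe sets and 22180 named genes in all. Cd74 has no probe set of this kind and is not analysed here.

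The cells were mouse monocytes with high Ly6C, sorted from bone marrow pooled from 3 animals, and kept with GM-CSF and interleukin 4 (20 ng per ml of each), which turn monocytes toward dendritic cells. One group of 2 arrays received all-trans retinoic acid at 100 nM from the start, and the other group of 2 arrays received the solvent DMSO. Both groups had the same cytokines, and RNA was taken at 24 h, day 1 of the culture. Strain, age and sex of the mice are not given in the labels, and nothing in them says whether the 2 samples of a treatment were separate cultures. Each p-value therefore reflects how far the 2 samples of a treatment lay apart, and that distance may be technical. The main test, limma, draws the spread of each probe set toward a value shared by all tested probe sets. Its SE and p thus rest on both, and not on the replicates of 1 probe set alone.

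Class II genes are transcribed by an assembly of factors on a short promoter module, the X and Y boxes. The subunits of RFX and NF-Y, and CREB, bind this DNA in many cells, but the module becomes active when CIITA joins them, so that the amount of CIITA sets the output. The new αβ chains assemble with the invariant chain, proteases of the endosome trim that chain to a short fragment, and H2-DM exchanges the fragment for antigen peptide. H2-DO binds H2-DM and holds it back. In monocytes that become dendritic cells, class II is one of the products that allow them to act on T cells.

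Values are log2 intensities, the logarithm of the brightness of a probe set after the authors' normalization, and a difference is the retinoic acid mean minus the DMSO mean. Array medians over the tested probe sets lay between intensities of 80.0 and 81.8, and Pearson's r of log2 values across probe sets was 0.993 and 0.994 for arrays of 1 treatment and 0.984 to 0.988 for arrays of different treatments. As a guide to dim levels, the 95th percentile of the mean level of 1405 probe sets for olfactory and vomeronasal receptors served, which was 6.35. All 9 probe sets lay above it in both groups. The files give no detection calls, and the number of arrays limits the precision.

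Retinoic acid lowered 7 of the 9 probe sets at an adjusted p under 0.05 (limma, Benjamini-Hochberg over all 39720 probe sets) and raised 0. Over all tested probe sets, 1.19% passed as lower and 0.904% as higher, and 5335 had an unadjusted p under 0.05 (limma). On all 9, both retinoic acid arrays lay below both DMSO arrays, which was so for 23.3% of all tested probe sets. The median difference of the 9 was -1.41, against -0.006 over all tested probe sets. The genes were chosen with earlier results of these data known, so these counts describe them and are no independent evidence of their direction. The calls rest on leaving out 1625 probe sets that hold 1 identical value on all 4 arrays; with those kept, limma called 0 of the 9 and 0 of all probe sets (6260 at an unadjusted p under 0.05), with adjusted p of 0.0535 to 0.0758 for the 7. Scimp passed whichever array was left out, whereas the other 6 passed in none of the 4 fits that leave out retinoic acid replicate 1 or 2 or DMSO replicate 1 or 2. Of 14 called genes of the surrounding lists below, 13 passed in none of those fits.

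**Figure D1:**
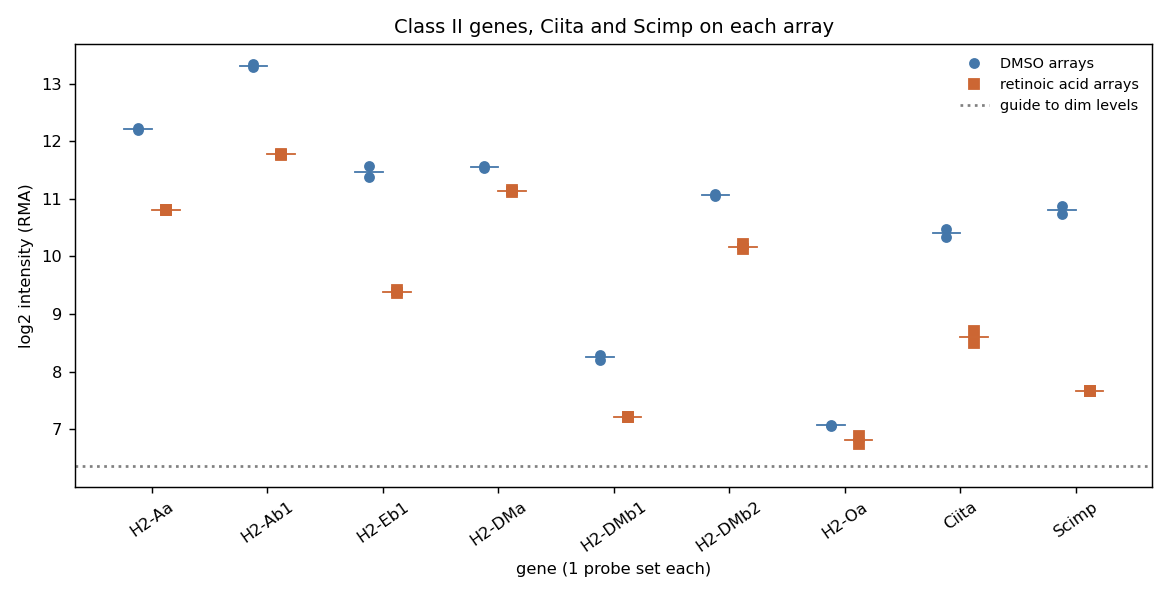
Log2 intensity (vertical axis) of each of the 9 genes (horizontal axis) on the 2 DMSO arrays (circles) and the 2 retinoic acid arrays (squares), with a short line at each group's mean and a dotted line at the dim level of 6.35. The treatments do not overlap for any of the 9 genes, with the widest gap for Scimp and the narrowest for H2-Oa.

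Ciita (probe set 17322842) encodes the master activator on which the class II genes depend. Its log2 intensity was 10.47 and 10.33 with DMSO, and 8.49 and 8.70 with retinoic acid. Both retinoic acid arrays were low and close to each other compared with the distance to DMSO. Ciita fell from 10.40 ± 0.10 to 8.59 ± 0.15 (SD, n = 2), which was 3.51-fold lower (difference -1.81 ± 0.11, SE, limma adjusted p = 0.00726). The level with retinoic acid was 28.5% of that with DMSO. The arrays cannot tell which of the gene's alternative promoters gave the transcripts, since 1 probe set reads the whole gene. In bulk samples such as these, fewer cells that make a transcript and less of it per cell cannot be told apart.

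The 3 classical class II genes all fell. H2-Ab1 (probe set 17336494), which encodes the β chain of the I-A molecule, was at 13.34 and 13.28 with DMSO and at 11.78 and 11.77 with retinoic acid. Replicates of H2-Ab1 were apart by at most 0.06. Its difference was -1.54 ± 0.08 (SE, limma adjusted p = 0.00498), a 2.90-fold fall. H2-Aa (probe set 17343813) encodes the partner α chain. It was at 12.23 and 12.20 with DMSO and at 10.80 on both retinoic acid arrays, with a difference of -1.41 ± 0.08 (limma adjusted p = 0.00587), a 2.66-fold fall.

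H2-Eb1 (probe set 17336502) encodes the β chain of the I-E molecule. It was at 11.57 and 11.37 with DMSO and at 9.41 and 9.37 with retinoic acid. The 2 DMSO arrays were further apart than for the I-A chains, yet both stood far above the retinoic acid arrays. Its difference of -2.08 ± 0.10 (SE, limma adjusted p = 0.00488), a 4.23-fold fall, left 23.6% of the DMSO level. The 95% interval of the H2-Eb1 difference ran from -2.34 to -1.82, that of H2-Ab1 from -1.74 to -1.34 and that of H2-Aa from -1.61 to -1.22.

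Whether members fell by unequal amounts was examined within arrays, as the log2 value of one probe set minus that of another, for 7 pairs. H2-Eb1 minus H2-Aa was -0.65 and -0.83 with DMSO, and -1.40 and -1.43 with retinoic acid. The fold difference of H2-Eb1 was thus 1.59 times that of H2-Aa, and it was 1.46 times that of H2-Ab1. These are folds of probe set intensity. Whether intensity follows the amount of transcript equally in each probe set was not tested. The paired I-A chains differed least: H2-Ab1 minus H2-Aa went from 1.12 and 1.08 to 0.98 and 0.97, a factor of 1.09. For Ciita against H2-Ab1 the factor was 1.21. The exact permutation test over arrays gave p = 0.333 (two-sided, also after adjustment over the 7 pairs) for each pair, which is the smallest value that 2 arrays against 2 allow, so none of these inequalities can pass a threshold in this design.

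The start regions of 5 of these genes are shown because they hold, or in 1 case lack, the paired letters by which the X and Y boxes were searched. Each line is the 150 bases just upstream of a RefSeq transcript start, 5′ to 3′ on the gene's strand (RefSeq, GRCm38.p6; all on chromosome 17). Capitals mark GATTGG, the reversed CCAAT of the Y box, and, where it precedes on the same strand with 24 to 32 bases between, GNAAC, letters within the X box.
H2-Aa (17, 34287824 to 34287973, minus strand): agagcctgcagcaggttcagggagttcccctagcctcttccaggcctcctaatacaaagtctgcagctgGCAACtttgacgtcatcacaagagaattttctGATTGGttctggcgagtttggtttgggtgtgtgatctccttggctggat
H2-Eb1 (17, 34305717 to 34305866, plus strand): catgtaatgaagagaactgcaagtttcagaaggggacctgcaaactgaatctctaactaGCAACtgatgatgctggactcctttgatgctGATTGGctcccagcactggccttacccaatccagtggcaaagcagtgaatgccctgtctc
H2-DMb1 (17, 34153041 to 34153190, plus strand): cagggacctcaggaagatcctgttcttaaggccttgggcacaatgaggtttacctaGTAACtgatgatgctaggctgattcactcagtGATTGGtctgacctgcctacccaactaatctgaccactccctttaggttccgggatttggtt
H2-DMb2 (17, 34145099 to 34145248, plus strand): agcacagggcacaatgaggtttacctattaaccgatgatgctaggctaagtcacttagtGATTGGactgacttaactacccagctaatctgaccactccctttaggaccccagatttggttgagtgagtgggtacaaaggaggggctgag
H2-Oa (17, 34092229 to 34092378, plus strand): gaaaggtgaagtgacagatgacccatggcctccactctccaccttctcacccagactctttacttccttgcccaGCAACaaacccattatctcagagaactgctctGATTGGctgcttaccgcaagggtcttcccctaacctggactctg

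The spacer between the 2 motifs was 27 bases in H2-Aa, H2-DMb1 and H2-Oa and 26 in H2-Eb1. The spacing window was set after these sequences had been read. Both motifs were searched on both strands of the 250 bases upstream of each start, and they do not overlap each other. Among 32851 such windows, 79.6% held GNAAC, 14.6% held GATTGG and 0.490% held the spaced pair on 1 strand. H2-DMb2 held GATTGG 91 bases before its start, without the pair. In its printed sequence TTAAC, which differs from GNAAC only in the first letter, stands 27 bases before GATTGG. That is the spacing of GTAAC in H2-DMb1. For H2-DMa, the table holds 2 starts, neither with the pair, and GATTGG stood 199 bases before 1 of them. H2-Oa holds the pair as H2-Aa, H2-Eb1 and H2-DMb1 do. H2-Ob, not a member, holds the pair with a spacer of 24, the shortest that the search allowed, GATTGG standing 58 bases before its start. Whether the pair bears on the response of a gene was not tested. These are matches of letters and are no record of binding. Sequences of H2-Ab1, Ciita and Scimp were not used here.

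Of the 3 genes of H2-DM, the peptide exchange catalyst, both β chain genes fell and the α chain gene did not pass. H2-DMb1 (probe set 17336422), a β chain gene, was at 8.29 and 8.20 with DMSO and at 7.20 on both retinoic acid arrays. The fall was 2.06-fold (difference -1.04 ± 0.08, SE, limma adjusted p = 0.0126). H2-DMb2 (probe set 17336414), the neighbouring β chain gene, was at 11.09 and 11.05 with DMSO and at 10.21 and 10.12 with retinoic acid. It fell 1.87-fold (difference -0.90 ± 0.08, limma adjusted p = 0.0174). The upstream windows of the genes are alike: over 209 aligned bases, with 12 gap bases left out, 83.7% were identical. Those windows lie before the transcripts, and transcript and probe sequences were not compared. Whether probes of these genes share targets is thus not known, and the response of each gene is uncertain to that extent.

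H2-DMa (probe set 17336407), the α chain that pairs with either β chain, was at 11.57 and 11.53 with DMSO and at 11.12 and 11.15 with retinoic acid. The arrays of the treatments did not overlap, but the difference of -0.41 ± 0.08 (SE, 95% interval -0.61 to -0.21) did not pass (limma adjusted p = 0.0977). It passed among probe sets with 1 symbol (limma adjusted p = 0.0246) and with an intensity trend in limma's variance prior (0.0236); over all alternatives its adjusted p ran from 0.0236 to 0.394. The difference of H2-DMa came to 1.33-fold, compared with 2.06-fold for H2-DMb1. Relative to H2-DMa, H2-DMb1 was lower by 1.55-fold and H2-Ab1 by 2.18-fold (exact permutation p = 0.333 for each, the smallest possible).

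H2-Oa (probe set 17336396) encodes the α chain of H2-DO, the inhibitor of H2-DM. It was at 7.05 and 7.08 with DMSO and at 6.75 and 6.89 with retinoic acid. Its treatments were the closest of the 9, with 0.17 between the lowest DMSO array and the highest retinoic acid array. The difference of -0.25 ± 0.09 (SE, 95% interval -0.48 to -0.02) did not pass (limma adjusted p = 0.331), nor under any of the 12 alternatives. The levels lay less than 1 log2 unit above the dim level.

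**Figure D2:**
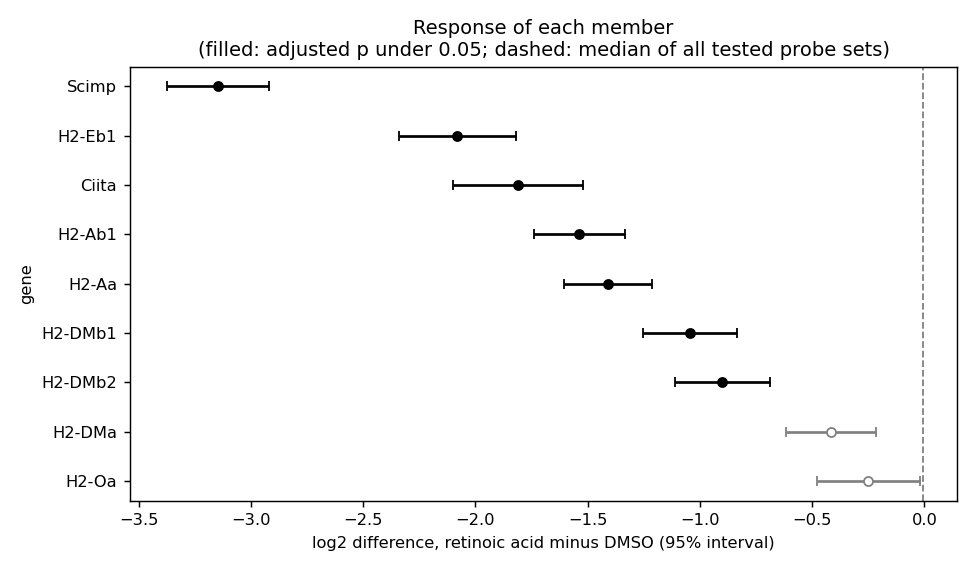
Log2 difference, retinoic acid minus DMSO (horizontal axis), of each of the 9 genes with its 95% interval from limma; filled points passed at an adjusted p under 0.05 and the dashed line is the median of all tested probe sets. The values run from -3.15 for Scimp to -0.25 for H2-Oa, and H2-DMa and H2-Oa are the open points.

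Scimp (probe set 17265386) encodes a transmembrane adaptor of antigen-presenting cells that sits in tetraspanin-rich membrane patches beside class II and passes signals through Src-family kinases and adaptor proteins. Its log2 intensity was 10.88 and 10.74 with DMSO, and 7.67 and 7.66 with retinoic acid. The distance between the treatments was over 3 log2 units, and the retinoic acid arrays were apart by less than 0.01. Scimp fell by 3.15 on the log2 scale (SE 0.09, limma adjusted p = 0.00192), 8.85-fold, the furthest of the 9, to 11.3% of its DMSO level. Leaving out each array in turn gave differences of -3.21 to -3.08 and adjusted p of 0.0362 to 0.0430.

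Around Scimp, 9 of 10 listed signalling partners were measured. Of these, 1 fell, 1 rose and 7 did not pass, and 5 had an unadjusted p under 0.05 (limma). Blnk, which encodes the adaptor SLP-65, was at 8.19 and 8.18 with DMSO and at 6.49 and 6.50 with retinoic acid. It fell 3.23-fold (limma adjusted p = 0.00432), and its level with retinoic acid was close to the dim level. Cd81, a tetraspanin, went the other way, from 9.94 and 9.92 to 11.22 and 11.14, and rose 2.38-fold (limma adjusted p = 0.00779). The kinase regulator Csk (difference -0.13), the adaptor Grb2 (-0.03), the kinase Syk (0.19), the adaptor Lcp2 (0.35), the tetraspanin Cd37 (-0.47) and the pattern receptors Tlr4 (0.10) and Clec7a (0.50) did not pass. The median difference of these partners was 0.10.

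All 12 listed genes of factors that bind class II promoters beside CIITA, or of coactivators, were measured. Of these, 0 passed in either direction (limma, smallest adjusted p = 0.450), and 0 had an unadjusted p under 0.05. Their differences lay between -0.10 and 0.17, with a median of -0.004. Rfx5, the DNA-binding subunit of RFX, was at 8.62 and 8.68 with DMSO and at 8.74 and 8.72 with retinoic acid (difference 0.08, 95% interval -0.12 to 0.29). Rfxap and Rfxank, its partner subunits, differed by -0.07 and 0.01. Nfyc of NF-Y had the smallest adjusted p of the list, with a difference of 0.17 ± 0.08 (SE). Creb1 differed by -0.10 and the coactivators Crebbp and Ep300 by -0.09 and -0.08. Missing the threshold does not show equality; the 95% intervals of all 12 lay between -0.32 and 0.37.

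Genes listed as signals and factors acting on Ciita moved in both directions: of 17 measured (18 listed), 3 fell, 3 rose and 11 did not pass. The 17 include Nlrc5, whose product acts on class I genes, as described below. Spi1, which encodes the myeloid factor PU.1, fell from 10.61 and 10.75 to 10.02 and 10.01 (1.58-fold, limma adjusted p = 0.0438). Irf4 fell from 11.81 and 11.74 to 11.04 and 11.06 (1.65-fold, limma adjusted p = 0.0270). Jak2, the gene of a kinase of the interferon γ and GM-CSF receptors, fell from 12.65 and 12.68 to 12.09 and 11.97 (1.55-fold, limma adjusted p = 0.0448). In all 3 the treatments did not overlap.

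The 3 that rose were Irf1, Irf8 and Ifngr1. Irf1, a factor that acts on the interferon-responsive promoter of Ciita, was at 8.25 and 8.15 with DMSO and at 9.20 and 9.17 with retinoic acid, a 1.99-fold rise (limma adjusted p = 0.0140). Irf8 rose 2.12-fold in its brighter probe set (limma adjusted p = 0.0200); its second probe set lay below 6.35 in both groups and differed by 0.13 (limma adjusted p = 0.658). Ifngr1, a chain of the interferon γ receptor, rose 1.57-fold (limma adjusted p = 0.0327). The 11 that did not pass were Ifngr2 (0.13), Jak1 (-0.01), Irf2 (-0.35), Nlrc5 (-0.59), Prdm1 (-0.61), the interleukin 4 receptor chain Il4ra (0.07), Stat6 (-0.23), the GM-CSF receptor chains Csf2ra (-0.35) and Csf2rb (-0.03), Il10 (-0.08) and Il10ra (-0.13). Of the 17, 11 had an unadjusted p under 0.05 (limma), against 5335 of all 39720 tested probe sets. With 1 array left out, the adjusted p of these 6 genes ran from 0.102 to 0.287.

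Nlrc5 encodes a relative of CIITA that acts on class I genes. It was at 7.30 and 7.59 with DMSO and at 6.89 and 6.82 with retinoic acid, with no overlap between treatments. Its difference of -0.59 ± 0.12 (SE, limma adjusted p = 0.126) did not pass.

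Of 11 measured genes for the supply of peptides and the cleavage of the invariant chain, 1 rose, 0 fell and 10 did not pass. An unadjusted p under 0.05 (limma) was found for 6 of the 11. Ctsl, the protease cathepsin L, was at 9.16 and 9.19 with DMSO and at 11.27 and 11.09 with retinoic acid. It rose 4.01-fold (difference 2.00 ± 0.10, SE, limma adjusted p = 0.00488), so its direction was opposite to that of the class II chains. Ctss, the cathepsin that cleaves the invariant chain in most antigen-presenting cells, was at 12.66 and 12.84 with DMSO and at 12.82 on both retinoic acid arrays (difference 0.07 ± 0.09, limma adjusted p = 0.821), with overlapping treatments. The thiol reductase gene Ifi30 differed by -0.11 and Sppl2a, a protease that removes the remaining invariant chain stub, by -0.31, and neither passed. Legumain (Lgmn, 0.70) and cathepsin H (Ctsh, 0.53) lay higher on both retinoic acid arrays without passing. The median of the list was 0.19. With each array left out in turn, Ctsl passed without retinoic acid replicate 2 (adjusted p = 0.0441) and not in the other 3 fits (0.0581 to 0.0658).

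**Figure D3:**
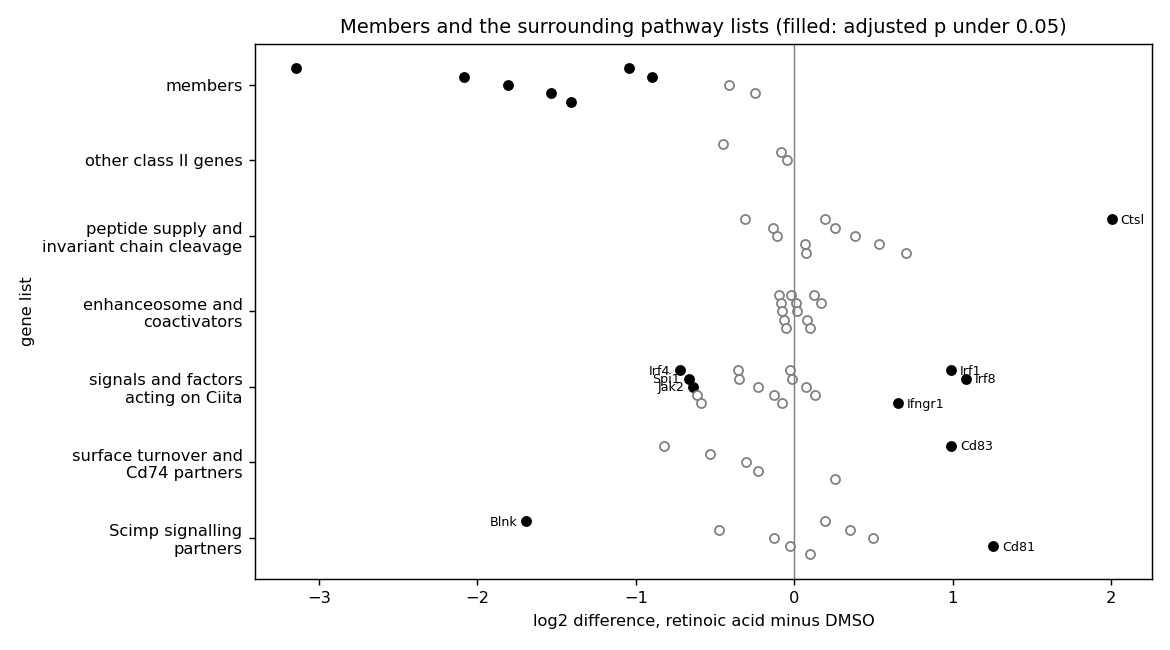
Log2 difference, retinoic acid minus DMSO (horizontal axis), of the 9 members and of each measured gene of the surrounding lists (vertical axis); filled points passed at an adjusted p under 0.05. The members lie between -3.15 and -0.25, the enhanceosome and coactivator genes between -0.10 and 0.17, and Ctsl is the furthest to the right at 2.00.

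Among 6 genes of class II surface turnover and of CD74 partners, Cd83 rose and the other 5 did not pass. Of the 6, 4 had an unadjusted p under 0.05 (limma). Cd83 encodes a surface protein known to oppose the ubiquitin ligase MARCH1, which removes class II from the surface. It was at 7.65 and 7.66 with DMSO and at 8.62 and 8.68 with retinoic acid, a 1.99-fold rise (limma adjusted p = 0.0126). Marchf1 itself differed by -0.30 ± 0.11 (SE, limma adjusted p = 0.362). Of the partners of CD74, Cd44 differed by -0.53 and Cxcr4 by -0.82, with adjusted p of 0.0610 and 0.0579 (limma), and its ligand gene Mif by 0.26.

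Of 3 other measured class II genes, 0 passed (limma, 1 at an unadjusted p under 0.05). H2-Ob, the β chain of H2-DO, was at 7.65 and 7.56 with DMSO and at 7.12 and 7.18 with retinoic acid. Its difference of -0.45 ± 0.08 (SE, limma adjusted p = 0.0936) did not pass. H2-Eb2 (5.35 with DMSO, 5.27 with retinoic acid) and H2-Ea (5.85 and 5.81), annotated by RefSeq as a transcribed pseudogene, lay under the dim level in both groups, so their values do not show whether they responded.

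The class II region of chromosome 17 also holds genes of other functions, which lie between the members. Psmb9 and Psmb8, subunits of the immunoproteasome, and Tap1 and Tap2, the peptide transporter, separate H2-DMb1 from H2-Ob. This group was picked after the values had been seen. Tap1 was at 10.28 and 10.15 with DMSO and at 9.74 and 9.84 with retinoic acid (difference -0.42 ± 0.09, SE, limma adjusted p = 0.137). Psmb9 differed by 0.19, Psmb8 by -0.16 and Tap2 by -0.22, and none of the 4 passed. Brd2, which encodes a bromodomain protein and lies next to H2-DMa, differed by -0.04 ± 0.08. Btnl2, beyond H2-Ea, differed by 0.67 ± 0.11 (limma adjusted p = 0.0702).

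**Figure D4:**
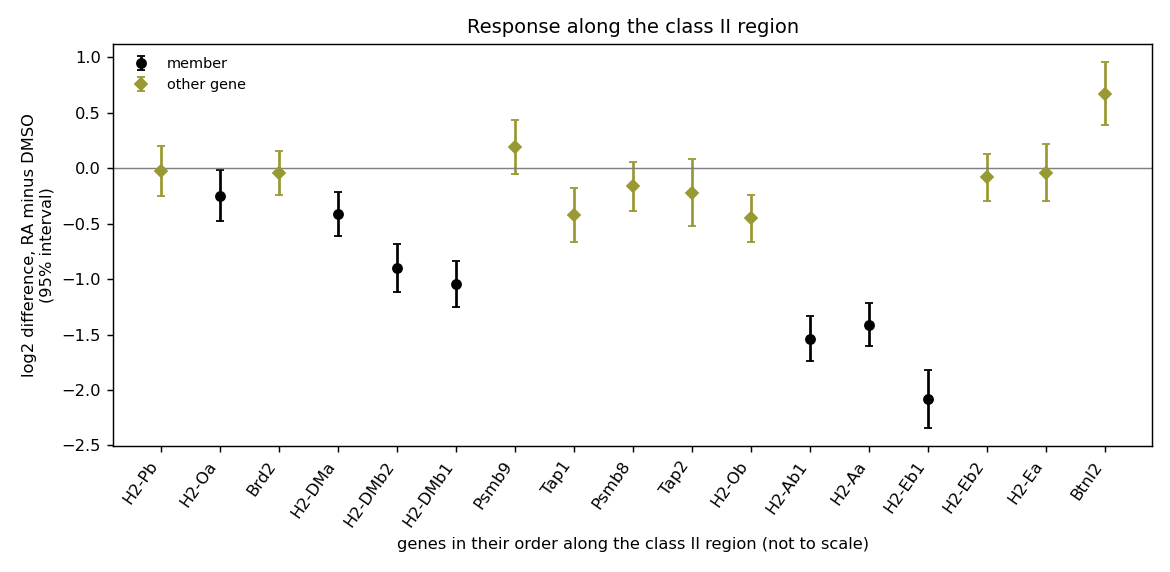
Log2 difference, retinoic acid minus DMSO, with its 95% interval from limma (vertical axis), of the measured genes in their order along the class II region of chromosome 17 (horizontal axis, not to scale); circles are members and diamonds are other genes. H2-DMb2, H2-DMb1, H2-Ab1, H2-Aa and H2-Eb1 lie between -2.08 and -0.90, the members H2-DMa and H2-Oa at -0.41 and -0.25, and the other genes run from -0.45 (H2-Ob) and -0.42 (Tap1) to 0.67 (Btnl2).

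The nearest measured neighbours of Ciita and Scimp did not pass. Beside Ciita, which lies on chromosome 16, Dexi was at 9.14 ± 0.05 with DMSO and 9.17 ± 0.06 with retinoic acid (SD, n = 2; difference 0.03 ± 0.08, SE, limma adjusted p = 0.912). Tvp23a, on the other side, was under the dim level in both groups. Beside Scimp, which lies on chromosome 11, Zfp3 differed by 0.04 ± 0.13 and Rabep1 by -0.31 ± 0.09 (SE, limma adjusted p = 0.944 and 0.228).

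Other genes with a like pattern over the 4 arrays were sought by the Euclidean distance between log2 profiles, each centred on its own mean, among 12763 genes above the dim level. Nearest to H2-Ab1 was Zbtb46, a transcription factor of conventional dendritic cells, at a distance of 0.035, followed by the nucleoside transporter Slc29a3 (0.045), Tuba8 (0.081), Id1 (0.082) and Id2 (0.095). Zbtb46 was at 8.17 and 8.15 with DMSO and at 6.63 and 6.64 with retinoic acid. Nearest to Ciita were the lipase gene Daglb (0.087), the myosin gene Myo1e (0.112), Traf1 (0.125), Plec (0.165) and Niban2 (0.168). Nearest to Scimp were the water channel gene Aqp3 (0.167), F2rl2 (0.209), Gfra2 (0.286), Ms4a4a (0.313) and Septin3 (0.351). With 4 arrays a small distance says that the levels changed by a like amount and little more.

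Markers of cells that carry class II, or that the sort could have let through, were summed on the intensity scale. Monocyte markers were bright, with Ly6c2 at 11.91 with DMSO and 11.72 with retinoic acid and Csf1r at 11.87 and 11.86, and 1 of 10 measured, Spi1, passed, as lower. Their summed intensity was 25871.5 and 26871.4 with DMSO, and 30090.1 and 28843.4 with retinoic acid, and the median difference was 0.20. Itgam (0.66), Adgre1 (0.63) and Fcgr1 (0.60) lay higher with retinoic acid without passing (limma adjusted p of 0.0893, 0.376 and 0.116). Cd14 (0.29), Lyz2 (0.24) and Cx3cr1 (0.16) also had higher means without passing. Ccr2 (-0.34, limma adjusted p = 0.164), Ly6c2 (-0.19) and Csf1r (-0.005) had lower means without passing, so the monocyte markers did not share 1 direction. Of 9 measured B cell markers, 2 rose and 0 fell; their summed intensity was 1644 and 1799.6 with DMSO, and 4512 and 4405 with retinoic acid. The higher sum came mainly from Ighm, the immunoglobulin μ chain, of which 1 of 7 probe sets passed (3.18-fold, limma adjusted p = 0.00646). Cd79b rose 1.57-fold (limma adjusted p = 0.0471), and Cd79a (0.19) and Cd22 (0.14) did not pass. Ms4a1, Pax5, Ebf1, Blk and Fcer2a were under the dim level in both groups. The part of B cells in the fall of class II was not tested.

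Of 7 measured markers of conventional dendritic cells, Zbtb46 fell 2.88-fold (limma adjusted p = 0.00488) and 6 did not pass. Their summed intensity was 8295 and 8938 with DMSO and 7175 and 6565 with retinoic acid. Most of that sum was Cd24a, at 6486 and 7278 with DMSO, and at 5632 and 4985 with retinoic acid, a log2 difference of -0.37 that did not pass (limma adjusted p = 0.242). Itgae differed by -0.72 without passing (limma adjusted p = 0.0895), Flt3 by -0.34 and Batf3 by 0.24, and Xcr1 was under the dim level in both groups. Of 6 measured plasmacytoid dendritic cell markers, 0 passed (limma, smallest adjusted p = 0.118, Tcf4), with 2 at an unadjusted p under 0.05. They summed to 853 and 802 with DMSO and 709 and 742 with retinoic acid. The lower sum came mainly from Tcf4 (-0.44), at 500 and 467 with DMSO and at 342 and 370 with retinoic acid. Their median difference was 0.10: Klk1 (0.33), Ccr9 (0.20), Cox6a2 (0.19) and Ly6d (0.01) had higher means and Siglech (-0.02) a lower one. Siglech, Ccr9 and Klk1 were under the dim level in both groups. The part of dendritic cells in the fall of class II was not tested. T and NK cell and erythroid markers gave 0 calls of 8 and of 3 measured (limma; smallest adjusted p of 0.276, Cd3g, and 0.750, Epor; 1 and 0 at an unadjusted p under 0.05). Of 9 neutrophil markers, 1 passed, Retnlg, which was under the dim level in both groups, while Elane and Mpo stood above 11.5 in both.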

How the data were processed

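Expression was measured on 1-colour Affymetrix whole-transcript arrays from 250 ng of RNA, per the labels' protocols. For each array the authors deposited the intensity of every probe set, made with Affymetrix Expression Console and RMA per the submitters' processing notes, which corrects background, equalises the arrays and summarises probes. Versions and a genome build are not given in the sources used here. The deposited intensities are linear, from 4.78 to 15452.5, and log2 was taken here with no further normalization.

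Of 41345 probe sets, 1625 hold 1 identical value on all 4 arrays (1624 at 4.78) and were left out. The platform annotation gave the gene names: 23521 probe sets had 1 symbol, 1814 had several and 16010 are unnamed here. The treatments were compared by limma 3.58.1 (R 4.3.3, lmFit, eBayes, two-sided, no covariates). The fit was also run on data simulated from limma's own model without constant probe sets, which cannot test that model or their omission. For genes outside the members, the probe set with the highest mean stands for the gene. Members, lists and the choice to leave out constant probe sets were made with earlier results of these data known. Named were all members, list genes that passed or had the smallest adjusted p of their list, nearest neighbours and the 5 nearest profiles; further list genes and the other genes of the region were added for their role. Alternatives were the probe set filters, a variance trend, renewed quantile normalization, an added intensity of 16, the replicate number as a block and each array left out. Promoter sequences are from RefSeq; 6 of the 9 genes matched the table.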

Additional observations from a re-analysis of the deposited data

How the results depend on the processing

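The 9 members kept their direction under all 12 alternatives, the last of which was added after the data were seen. With the constant probe sets kept, limma called 0 probe sets higher, 0 lower and 0 members lower, at 6260 with an unadjusted p under 0.05 and prior degrees of freedom of 0.898 in place of 2.76. Only probe sets with 1 symbol gave 757 higher and 879 lower, against 359 and 472, and 8 members; only those above the median level gave 545 higher. Whether the replicate numbers pair the arrays is not known. Deviations of same-numbered arrays from their treatment mean correlated at -0.25. With 2 arrays per treatment this value is the same for both numbers and has the opposite sign for crossed pairs, so it cannot settle the pairing. The replicate block gave 73 higher, 88 lower and 4 members lower, without Ciita, H2-DMb1 and H2-DMb2 (limma adjusted p of 0.0515, 0.0728 and 0.0857). The crossed replicate block, chosen after seeing the data, gave 194, 263 and 7. Without any 1 array, 12 to 30 probe sets were higher, 13 to 25 lower and 1 member, Scimp, lower in each fit; 1 group then has a lone array, assumed to vary like the other group. The adjusted p of H2-Eb1 over these fits ran from 0.0523 to 0.0616 and that of Ciita from 0.0560 to 0.0785. Renewed quantile normalization, a variance trend and an added 16 left every count within 1.5 times of its main value. The files used here hold no detection calls, so a level under the dim level is not shown to differ from background.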
